A study of Rattus norvegicus with 18 samples.

Results

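The Kruppel-like factors (KLFs) described here are 9 transcription factor genes, Klf2, Klf3, Klf4, Klf5, Klf6, Klf9, Klf10, Klf13 and Klf15, taken by symbol from an expression table of 17303 rows. All 9 symbols were present, and all 9 passed the filter on low values. The list was selected on results from these same libraries, that is, with FPKM levels and fold changes between the 6 groups in view, although no threshold on them enters the rule. The adjusted p-values below give the size of a difference against the spread between libraries and are not independent evidence about the family. The study measured polyadenylated RNA in ventricular myocytes from newborn Wistar rats on day 3 after birth, in 18 libraries that form 6 groups of 3. The isolated cells were kept for 48 h with AraC, which kills dividing cells, and for 24 h without serum. They were then treated for 48 h, with medium and treatments replaced at 24 h. The groups were Vehicle, phenylephrine (PE, which activates alpha1-adrenergic receptors and makes cardiac myocytes enlarge) at 10 µM, PE with 10 µM or 50 µM Senexin A, and Senexin A alone at 10 µM or 50 µM. Senexin A inhibits CDK8, the kinase of the Mediator complex, and the comparison asks how transcripts respond to PE when that kinase is inhibited. The labels do not say whether the 3 libraries of a group came from separate cultures or animals, so the p-values measure the spread between these libraries, which may be technical.

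KLFs bind CACCC boxes and GC-rich DNA through zinc fingers at the carboxy end and act as activators or repressors, depending on the cofactors they recruit. Klf2 and Klf4 are best known as shear-responsive factors of the endothelium, and Klf4 has also been described as a restraint on cardiac hypertrophy. Klf15 is known in the heart as an inhibitor of hypertrophic growth and as a regulator of fatty acid and branched-chain amino acid use, Klf5 as an activator of growth and lipid genes, and Klf10 as an early gene of transforming growth factor beta (TGF-beta) signalling.

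Promoter sequence is shown for 4 members whose transcripts changed together or in opposite directions at 50 µM Senexin A: Klf3, Klf5 and Klf6, which fell, and Klf15, which rose. Each run holds the 250 bases before the annotated start, 5′ to 3′ on the gene's strand, from RefSeq on the GRCr8 build. Capitals mark CACCC, read on either strand (GGGTG is its reverse complement), and the GC box GGGCGG, also read on either strand (reverse complement CCGCCC).
Klf3: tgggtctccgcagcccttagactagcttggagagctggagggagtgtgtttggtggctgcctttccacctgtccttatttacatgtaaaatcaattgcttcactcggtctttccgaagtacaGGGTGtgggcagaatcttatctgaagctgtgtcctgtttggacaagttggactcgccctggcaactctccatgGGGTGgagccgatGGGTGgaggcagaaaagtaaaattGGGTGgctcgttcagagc
Klf5: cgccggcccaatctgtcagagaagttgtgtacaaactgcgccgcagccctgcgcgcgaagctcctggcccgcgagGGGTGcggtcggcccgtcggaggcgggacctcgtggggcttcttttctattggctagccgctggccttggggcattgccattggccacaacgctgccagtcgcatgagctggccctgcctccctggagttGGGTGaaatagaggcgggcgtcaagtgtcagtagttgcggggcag
Klf6: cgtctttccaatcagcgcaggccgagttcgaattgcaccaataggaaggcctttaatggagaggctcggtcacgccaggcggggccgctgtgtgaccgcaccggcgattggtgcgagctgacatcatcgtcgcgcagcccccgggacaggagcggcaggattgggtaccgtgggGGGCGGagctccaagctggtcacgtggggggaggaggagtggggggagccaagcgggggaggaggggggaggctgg
Klf15: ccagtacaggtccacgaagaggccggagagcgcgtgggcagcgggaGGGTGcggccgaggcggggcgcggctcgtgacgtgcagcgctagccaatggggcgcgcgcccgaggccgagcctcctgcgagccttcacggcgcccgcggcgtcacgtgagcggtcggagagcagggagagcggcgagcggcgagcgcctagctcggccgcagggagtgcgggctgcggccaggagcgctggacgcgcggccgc
They lie at chr14:43850827-43851076 (minus strand), chr15:82471831-82472080 (plus strand), chr17:69458479-69458728 (minus strand) and chr4:124522765-124523014 (plus strand).

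Of the 9 members, 6 had an entry in this promoter table, and Klf2, Klf10 and Klf13 had none. The Klf4 entry was left aside because its window may lie inside transcribed sequence, which could not be checked here, so 5 windows were read. The Klf3 window held 4 CACCC matches, Klf5 held 2, and Klf9 and Klf15 held 1 each. The Klf6 window held none. For scale, 49.2% of 33465 rat promoter windows of the same length held a CACCC match. The GC box GGGCGG was present in the Klf6 window alone among the 5, against 30.5% of all windows. The sequence TGACG, the core of a cAMP response element, occurred 2 times in the Klf15 window and once each for Klf5 and Klf9 (18.2% of all windows). An AP-1 site (TGANTCA) was found for Klf9 alone (6.34% of all windows), and a CArG box for Klf6 alone (1.50%). The full glucocorticoid response element was found in none of the 5 windows and in 0.0120% of all windows. These are matches of letters, and whether any factor bound there was not measured.

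In the table's own coordinates (rn5), Klf2 lies at chr16:19084195-19086146, Klf4 at chr5:76447642-76452001, Klf10 at chr7:77258858-77265053 and Klf15 at chr4:186906049-186918645. Klf3 lies at chr14:44952287-44974726, Klf5 at chr15:87216662-87231849, Klf6 at chr17:69624950-69633946, Klf9 at chr1:248193533-248218136 and Klf13 at chr1:125883340-125914101. The table gives these spans per gene with no exon structure, and no member's span overlapped another row.

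Expression is given as FPKM (fragments per kilobase of transcript and of sequencing depth), which is scaled by transcript length, so levels can be compared between genes. In Vehicle the order of mean levels was Klf4 (32.0 ± 6.67 FPKM, mean ± SD, n = 3), Klf2 (30.1 ± 6.30), Klf6 (23.7 ± 2.30), Klf3 (16.5 ± 2.29), Klf15 (12.1 ± 3.69), Klf10 (11.7 ± 3.15), Klf9 (8.61 ± 0.972), Klf13 (4.99 ± 0.663) and Klf5 (3.85 ± 0.121). Neighbours in that order overlapped between Klf4, Klf2 and Klf6 and between Klf15, Klf10 and Klf9. The ranges were separate from Klf6 to Klf3, from Klf3 to Klf15, from Klf9 to Klf13 and from Klf13 to Klf5. Klf4 had the highest mean of the 9 in all 6 groups and Klf5 the lowest. Klf2, the 2nd of 9 in Vehicle, was the 8th of 9 in PE with 10 µM Senexin A and the 7th in both groups at 50 µM. Klf15, 5th in Vehicle, was 2nd at 50 µM Senexin A alone.

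**Figure D1:**
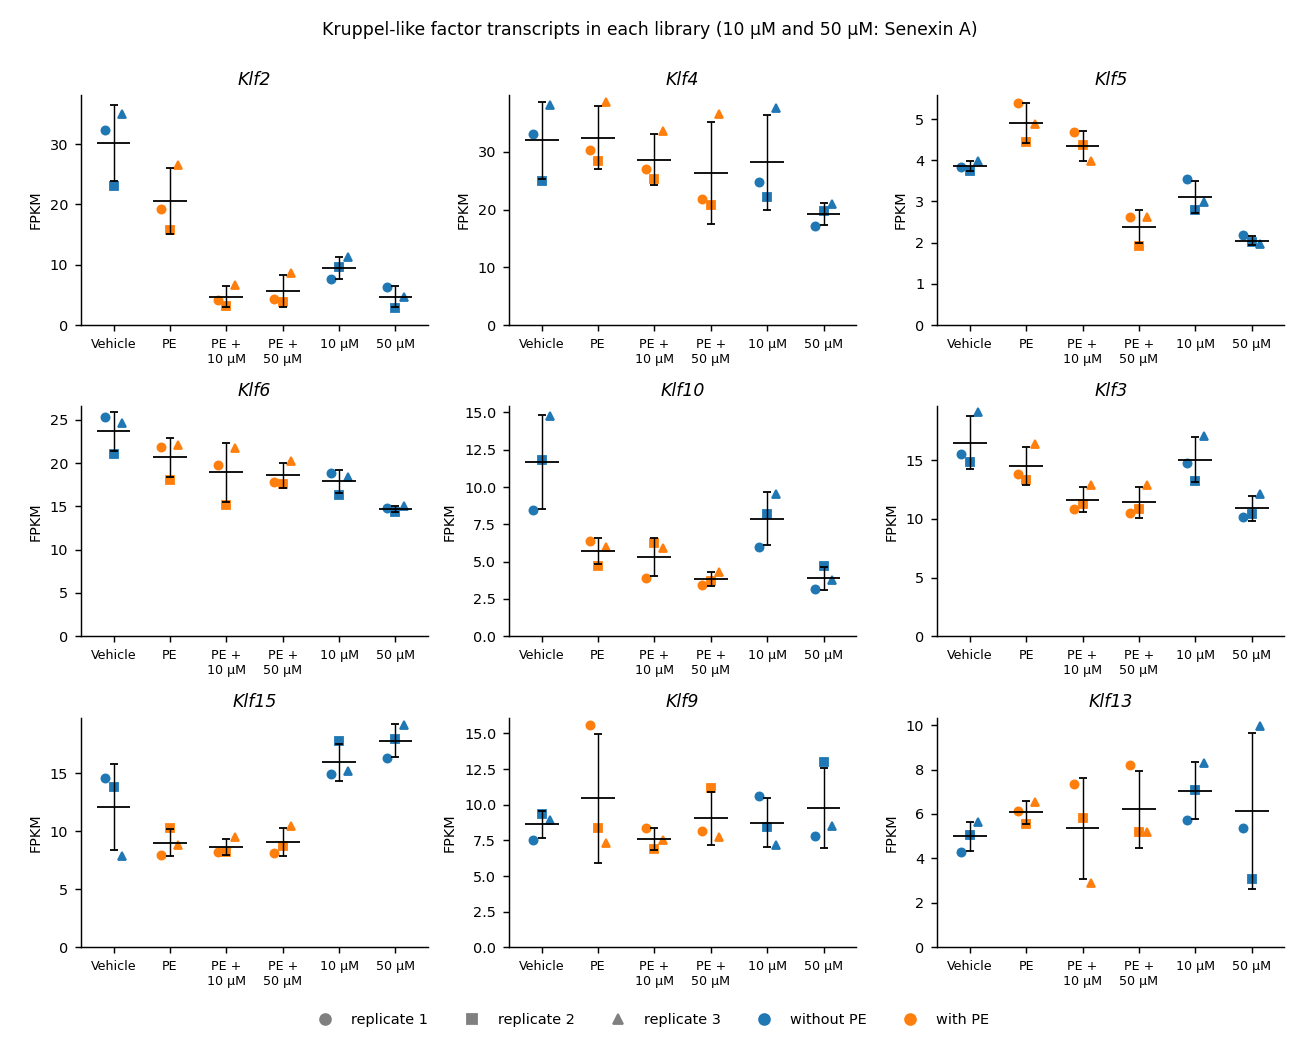
FPKM of each of the 9 Kruppel-like factors (y axes, linear, from 0) in every library of the 6 groups (x axes); points are libraries with a symbol per replicate number, bars are the group mean and SD of 3 libraries. Klf2 lies between 23.0 and 34.9 FPKM in Vehicle and at or below 11.2 FPKM in every library with Senexin A, and Klf15 is highest with Senexin A alone.

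Differences were tested with limma on log2(FPKM + 1) over 10478 rows, with Benjamini-Hochberg adjustment per comparison and a call at an adjusted p under 0.05; fold changes below are on that scale and understate the change of low genes. PE against Vehicle called 1 of the 9 members, Klf10, which fell, beside 30.6% of all tested rows (17.9% higher, 12.7% lower). Senexin A at 10 µM alone called 2 members, Klf2 and Klf6, both lower, beside 16.2% of rows (9.17% higher, 7.01% lower). Senexin A at 50 µM alone called 7 members, 6 lower and 1 higher, beside 60.7% of rows (30.5% higher, 30.2% lower). On top of PE, 10 µM called 1 member lower, beside 17% of rows (7.84% lower), and 50 µM called 3 members lower, beside 56.7% of rows (29.3% higher, 27.4% lower). From 10 to 50 µM, 4 members were lower without PE, beside 50.4% of rows (24.9% lower), and 1 with PE, beside 41.2% (19.9% lower). With the replicate number as a block, the 5 comparisons with a control called 4, 3, 7, 2 and 5 members in the order above, beside 42.2%, 26.4%, 67.5%, 27.9% and 64% of rows, and the steps from 10 to 50 µM called 6 without PE (59.2%) and 1 with it (50.9%). Of the 9 members, 6 had lower libraries at 50 µM alone with no overlap with Vehicle, against 32.2% of all rows. The median log2 fold change of the members was -0.65 at 50 µM alone and -0.32 at 50 µM with PE, beside medians of -0.01 and 0.00 over all rows. For PE it was -0.17, beside -0.01. In each of these comparisons at least 1 group is shared with another, so the columns of values are not independent.

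**Figure D2:**
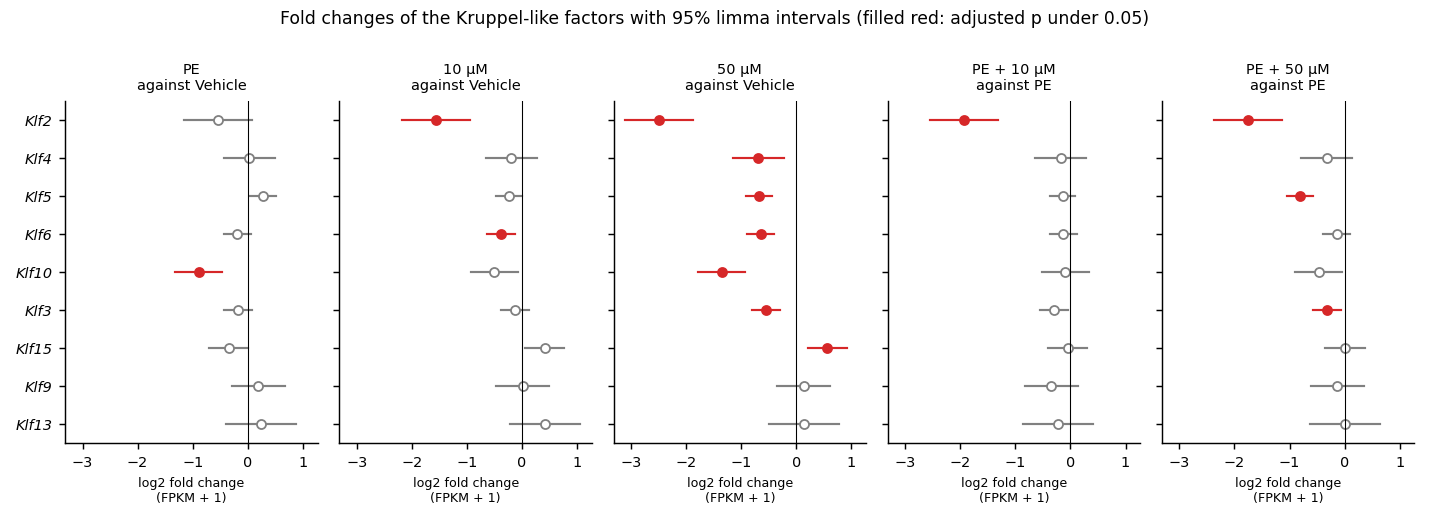
Log2 fold changes of log2(FPKM + 1) for the 9 members (x axes) in the 5 comparisons with a control, with 95% limma intervals; red filled points have an adjusted p under 0.05. Klf2 is the only member called lower in all 4 comparisons with Senexin A, and Klf15 the only member called higher in any.

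Klf2 showed the largest fall of the family with Senexin A. Its level was 32.4, 23.0 and 34.9 FPKM in Vehicle, 7.56, 9.55 and 11.2 FPKM at 10 µM alone, and 6.37, 2.88 and 4.72 FPKM at 50 µM alone. The 3 groups did not overlap, and each dose lay below the one before. Klf2 fell by 1.57 at 10 µM (SE 0.29, adjusted p = 0.0021) and by 2.49 at 50 µM (SE 0.29, adjusted p = 2.4e-06), which as a ratio of mean FPKM was 3.19-fold and 6.46-fold lower. The step from 10 to 50 µM alone was -0.92 (SE 0.29, adjusted p = 0.016), a call lost without 10 µM replicate 3 (adjusted p = 0.063) or 50 µM replicate 2 (0.087).

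With PE, Klf2 stood at 19.3, 15.7 and 26.5 FPKM, a range that overlapped Vehicle, and its change from Vehicle was -0.54 (SE 0.29, adjusted p = 0.17). The replicate numbers turned out to pair the libraries, and with the number as a block in the model the adjusted p of that change was 0.028. Adding 10 µM Senexin A to PE gave 4.22, 3.22 and 6.57 FPKM, and adding 50 µM gave 4.30, 3.83 and 8.61 FPKM. Both groups lay below every PE library. Klf2 fell by 1.93 at 10 µM with PE (SE 0.29, adjusted p = 0.00050) and by 1.75 at 50 µM with PE (SE 0.29, adjusted p = 9.7e-05). The 2 doses with PE overlapped, and their difference was 0.19 (95% interval -0.43 to 0.81, adjusted p = 0.64).

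Klf4, which shares the endothelial role of Klf2, was called in 1 comparison in the model without the replicate block. It stood at 33.1, 24.9 and 38.1 FPKM in Vehicle and at 30.2, 28.5 and 38.7 FPKM in PE, with a PE difference of 0.03 (95% interval -0.44 to 0.49, adjusted p = 0.94). Senexin A alone at 50 µM gave 17.1, 19.7 and 20.9 FPKM, below all Vehicle libraries, a fall of 0.69 (SE 0.22, adjusted p = 0.012) that missed the threshold without Vehicle replicate 3 (adjusted p = 0.061). At 10 µM alone the libraries read 24.7, 22.2 and 37.5 FPKM and overlapped Vehicle (difference -0.19, adjusted p = 0.60). With PE and 50 µM the libraries read 21.8, 20.7 and 36.5 FPKM, of which the third lay within the PE range, and the difference from PE was -0.33 (SE 0.22, adjusted p = 0.22; 0.019 with the replicate block). Without the third of those libraries that difference was -0.58 (adjusted p = 0.028), and without the second it was -0.18 (adjusted p = 0.55). Within a library, the ratio of Klf2 to Klf4 FPKM was 0.978, 0.923 and 0.917 in Vehicle and 0.637, 0.553 and 0.685 in PE. It lay between 0.128 and 0.236 in the 6 libraries with PE and Senexin A, and between 0.146 and 0.430 in the 6 with Senexin A alone. All 12 libraries with the inhibitor had a lower ratio than the 6 without it, a description with no test.

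Because Klf2 and Klf4 are known from vessels, markers of other cell types were read beside them. The summed level of 8 endothelial markers was low, 6.45 to 9.31 FPKM in Vehicle and 7.32 to 10.2 FPKM in PE, and Klf2 alone exceeded that sum in each Vehicle library. With Senexin A, Klf2 lay below the sum in replicates 1 and 2 of PE with 10 µM and in replicate 2 of both 50 µM groups. It exceeded the sum in the other libraries with Senexin A. Among the 8, Pecam1 was 0.380 to 1.41 FPKM, Cdh5 0.317 to 0.723 FPKM and Kdr 0.210 to 0.505 FPKM in Vehicle. These were named after their values were seen, and the rest of the sum came from the other listed markers. The endothelial sum was 5.47 to 6.57 FPKM in PE with 10 µM, 3.38 to 5.48 FPKM in PE with 50 µM, 5.89 to 9.02 FPKM at 10 µM alone and 2.85 to 6.13 FPKM at 50 µM alone, so with Senexin A it lay below its control, as Klf2 did, at 50 µM alone and at both doses with PE. At 10 µM alone its range overlapped that of Vehicle, and within each replicate number it was below Vehicle: 6.13 against 6.75 FPKM, 9.02 against 9.31 and 5.89 against 6.45. Of the 8 markers, 4 passed the filter. Of these, 1 was called lower at 50 µM alone and 2 at 50 µM with PE, beside 30.2% and 27.4% of all rows, and none at 10 µM. With the replicate block 2 were lower at 50 µM alone, 2 at 50 µM with PE and 2 at 10 µM with PE, and at 10 µM alone 1 was lower and 1 higher. In the same order, the block called 67.5%, 64%, 27.9% and 26.4% of all rows in either direction. Whether fewer endothelial cells had a part in the fall of Klf2 was not tested, and in bulk RNA fewer cells of a type and less RNA per cell cannot be told apart.

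Fibroblast and smooth muscle markers were abundant and also moved with the treatments. The sum of 8 fibroblast markers was 1757 to 3054 FPKM in Vehicle, 1172 to 1938 in PE, 963 to 1321 at 50 µM alone and 612 to 1213 in PE with 50 µM. The sum of 7 smooth muscle and pericyte markers was 4542 to 6144 FPKM in Vehicle and 1824 to 2853 FPKM at 50 µM alone. Of the 7 tested fibroblast markers, 2 were called lower at 50 µM alone (3 with the block) and 0 in PE (5 with the block). Of the 7 smooth muscle and pericyte markers, 3 were called lower at 50 µM alone (4 with the block). The sum of 8 macrophage markers was 81.4, 119 and 37.7 FPKM in Vehicle and 93.1, 395 and 76.7 FPKM at 10 µM alone, higher within each replicate number. Of these, 6 were tested, and 0 were called at 10 µM alone or at 10 µM with PE. With the block 4 were higher in each, beside 26.4% and 27.9% of all rows called in either direction. Within groups, the third replicate had the highest fibroblast sum in all 6 groups. It was also the highest of its group for Klf3 and Klf4 in 6 of 6 groups and for Klf2 in 5. For Klf6 and Klf13 it was the highest in 4, for Klf10 and Klf15 in 3, for Klf5 in 1 and for Klf9 in 0. The second replicate had the highest endothelial and macrophage sums in all 6 groups. It had the highest Klf9 in 3 groups, the highest Klf10 and Klf15 in 2 each, and the highest of no other member in any group. Cardiac markers were high in every group, as the label states: 6 of them summed to 8775 to 10218 FPKM in Vehicle, 11495 to 15028 in PE, 12212 to 14727 at 10 µM alone, 9466 to 12854 at 50 µM alone, 14411 to 18120 in PE with 10 µM and 11534 to 14568 in PE with 50 µM. They too moved with the treatments: 3 of the 6 were called higher and 1 lower in PE, 4 higher at 10 µM alone, and 2 higher and 1 lower at 50 µM alone. For the scale of all these marker counts, 17.9% of all rows were called higher and 12.7% lower in PE. The shares were 9.17% and 7.01% at 10 µM alone, and 30.5% and 30.2% at 50 µM alone. With the block, 42.2% of all rows were called in either direction in PE and 67.5% at 50 µM alone. The part of fibroblast, smooth muscle, macrophage and cardiac content in the members' changes was not tested.

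**Figure D3:**
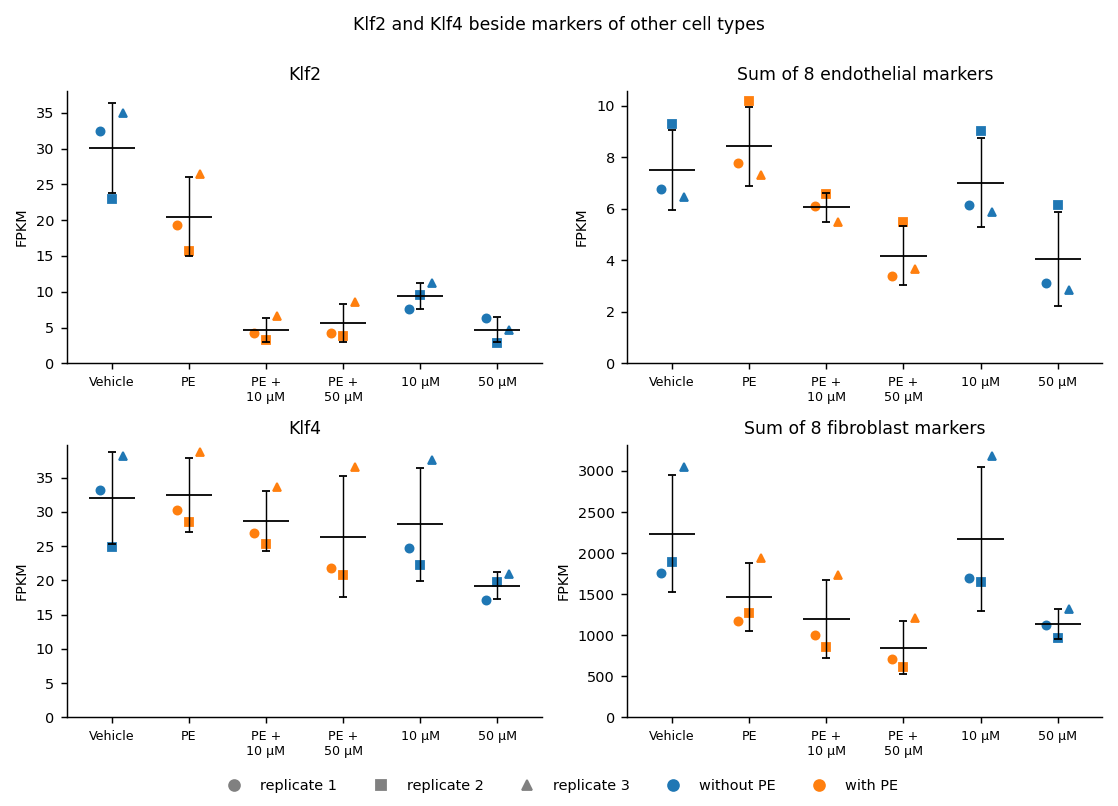
FPKM of Klf2 and Klf4 and summed FPKM of 8 endothelial and 8 fibroblast markers (y axes, linear, from 0) in the 18 libraries by group (x axes); symbols give the replicate number, bars the mean and SD of 3 libraries. The third replicate has the highest Klf4 and fibroblast sum in all 6 groups, while the endothelial sum is highest in the second.

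Klf3, Klf5 and Klf6 fell by smaller amounts at 50 µM alone. Klf3, a repressor that recruits CtBP proteins, was 15.5, 14.9 and 19.1 FPKM in Vehicle and 10.1, 10.5 and 12.1 FPKM at 50 µM alone, and it fell by 0.55 (SE 0.12, adjusted p = 0.00083). In PE it was 13.8, 13.4 and 16.3 FPKM (change -0.17, adjusted p = 0.30; 0.038 with the replicate block). It fell by 0.32 at 50 µM with PE (10.5, 10.8 and 12.9 FPKM, SE 0.12, adjusted p = 0.031). That call was lost when PE replicate 3 or replicate 1 or 2 of PE with 50 µM was left out, with adjusted p up to 0.14. At 10 µM with PE the libraries read 10.8, 11.2 and 12.9 FPKM, all below PE; the change of -0.29 missed the threshold (adjusted p = 0.11) but had an adjusted p of 0.0029 with the block. At 10 µM alone the change was -0.13 (95% interval -0.38 to 0.13, adjusted p = 0.52), and 50 µM lay below 10 µM by -0.43 (SE 0.12, adjusted p = 0.0073).

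Klf5, which activates growth factor and lipid genes, had the lowest mean level of the 9 in every group. It was 3.84, 3.73 and 3.98 FPKM in Vehicle and 5.40, 4.44 and 4.87 FPKM in PE. The groups did not overlap, with a change of 0.28 (SE 0.11, adjusted p = 0.063) that was called with the replicate block (0.027), quantile normalization (0.017), array weights (0.035) and no variance trend (0.038), and without replicate 2 of PE with 50 µM (0.042), a library outside that comparison. With PE and 50 µM it was 2.62, 1.92 and 2.62 FPKM, a fall of 0.81 (SE 0.11, adjusted p = 1.4e-05) with all 3 libraries below those of Vehicle. With PE and 10 µM it was 4.68, 4.38 and 3.98 FPKM, which overlapped PE (change -0.14, 95% interval -0.38 to 0.09, adjusted p = 0.41). Klf5 was the only member whose 2 doses with PE were called different, 50 µM below 10 µM by -0.66 (SE 0.11, adjusted p = 0.00017). Without PE it was 3.55, 2.79 and 2.99 FPKM at 10 µM (change from Vehicle -0.24, adjusted p = 0.15) and 2.18, 2.00 and 1.97 FPKM at 50 µM, where it fell by 0.67 (SE 0.11, adjusted p = 7.0e-05). The step between those doses was -0.43 (adjusted p = 0.0042), and it was -0.15 after quantile normalization (adjusted p = 0.25).

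Klf6, an injury-induced activator of TGF-beta genes, was 25.3, 21.0 and 24.7 FPKM in Vehicle, 18.9, 16.4 and 18.4 FPKM at 10 µM alone and 14.8, 14.3 and 15.0 FPKM at 50 µM alone. The 3 groups did not overlap. The fall of 0.65 at 50 µM (SE 0.12, adjusted p = 0.00016) was called in all 29 alternative analyses. The fall of 0.38 at 10 µM (SE 0.12, adjusted p = 0.035) was lost in 7 of 29, among them each analysis without a single 10 µM library and those without Vehicle replicate 1 or 3 (adjusted p up to 0.16 over the 29). On top of PE the groups overlapped: 21.8, 18.1 and 22.1 FPKM in PE, 19.8, 15.2 and 21.8 FPKM with 10 µM, and 17.8, 17.6 and 20.3 FPKM with 50 µM. The change at 50 µM with PE was -0.14 (95% interval -0.39 to 0.10, adjusted p = 0.31). The difference between the responses to 50 µM with and without PE was 0.50 (SE 0.16, adjusted p = 0.076); it was called with the replicate block (0.0059) and without replicate 2 of PE with 10 µM (0.035).

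Klf10, the TGF-beta inducible early gene, was the one member called for PE in the model without the replicate block. With the block Klf2 (adjusted p = 0.028), Klf3 (0.038) and Klf5 (0.027) were called too. Klf10 was 8.46, 11.8 and 14.8 FPKM in Vehicle and 6.41, 4.73 and 5.98 FPKM in PE, with no overlap. It fell by 0.89 (SE 0.20, adjusted p = 0.0033), 2.04-fold as a ratio of mean FPKM; with only the first 2 replicates of each group the adjusted p was 0.061. Senexin A alone gave 5.96, 8.18 and 9.51 FPKM at 10 µM, overlapping Vehicle (change -0.50, SE 0.20, adjusted p = 0.10; 0.025 with the replicate block, 0.037 without Vehicle replicate 1, and 0.36 without Vehicle replicate 3, where the change was -0.33). At 50 µM alone it gave 3.19, 4.72 and 3.75 FPKM, a fall of 1.35 (SE 0.20, adjusted p = 2.7e-05), and 50 µM lay below 10 µM by -0.85 (SE 0.20, adjusted p = 0.0023).

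With PE present, Klf10 was 3.87, 6.22 and 5.91 FPKM at 10 µM (change from PE -0.10, 95% interval -0.52 to 0.33, adjusted p = 0.79) and 3.41, 3.70 and 4.33 FPKM at 50 µM. The latter libraries lay below all PE libraries, and the change of -0.47 (SE 0.20) had an adjusted p of 0.054. It passed the threshold in 10 of 29 alternative analyses, the replicate block among them (0.014). Mean Klf10 was 3.82 FPKM at 50 µM with PE and 3.89 FPKM at 50 µM without it, where the groups overlapped. The difference between the responses to 50 µM with and without PE was 0.88 (SE 0.28, adjusted p = 0.073; 0.013 with the block and 0.030 without Vehicle replicate 1).

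Klf15 was the one member called higher in any comparison in the model without the replicate block. With the block Klf5 was also called higher, in PE (adjusted p = 0.027). Klf15 was 14.6, 13.9 and 7.88 FPKM in Vehicle, where the third library lay well below the other 2. Its level at 50 µM alone was 16.4, 17.9 and 19.2 FPKM, above all Vehicle libraries, and it rose by 0.56 (SE 0.17, adjusted p = 0.0083). Without Vehicle replicate 3 the rise was 0.30 (adjusted p = 0.046), and with only the first 2 replicates of each group it was 0.25 (adjusted p = 0.13). At 10 µM alone it was 14.9, 17.8 and 15.2 FPKM, also above all Vehicle libraries, with a change of 0.41 (SE 0.17, adjusted p = 0.11). Without Vehicle replicate 1 its adjusted p was 0.049, and without Vehicle replicate 3 the change was 0.15 (adjusted p = 0.48). In PE it was 7.97, 10.3 and 8.86 FPKM, and the change from Vehicle was -0.35 (SE 0.17, adjusted p = 0.13). Without Vehicle replicate 3 that change was -0.61 (adjusted p = 0.0029), and without Vehicle replicate 1 it was -0.20 (adjusted p = 0.42). With PE, the values at both doses overlapped PE: 8.24, 8.23 and 9.47 FPKM at 10 µM (change -0.05, 95% interval -0.41 to 0.30, adjusted p = 0.86) and 8.11, 8.71 and 10.4 FPKM at 50 µM (0.01, 95% interval -0.35 to 0.36, adjusted p = 0.98). All 9 libraries with PE lay at or below 10.4 FPKM and all 6 with Senexin A alone at or above 14.9 FPKM. The difference between the responses to 50 µM with and without PE was -0.56 (SE 0.24), and it did not pass (adjusted p = 0.18); without Vehicle replicate 3 it was -0.30 (adjusted p = 0.36).

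Klf9, a factor induced by glucocorticoid and thyroid hormone, and Klf13, a partner of GATA4 in the developing heart, passed in none of the 9 comparisons. Klf9 was 7.52, 9.38 and 8.94 FPKM in Vehicle and 15.6, 8.37 and 7.34 FPKM in PE, where 1 library stood apart (SD 4.52). Its libraries at 50 µM alone read 7.79, 13.0 and 8.54 FPKM (change 0.14, 95% interval -0.34 to 0.62, adjusted p = 0.62). Klf13 was 4.31, 5.04 and 5.63 FPKM in Vehicle and 5.35, 3.08 and 9.97 FPKM at 50 µM alone, the widest relative spread of any member and group (change 0.14, 95% interval -0.50 to 0.78, adjusted p = 0.71). Both intervals reach from a fall to a rise, so neither a direction nor the lack of a change was shown for these genes. At 10 µM alone Klf13 read 5.74, 7.10 and 8.30 FPKM, above all Vehicle libraries, with a change of 0.42 (SE 0.30, adjusted p = 0.38).

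None of the 9 members passed the test of the difference between responses with and without PE at either dose (limma), a test that called 0.305% of all rows at 10 µM and 7.01% at 50 µM. At an unadjusted p under 0.05 it took 0 members at 10 µM and 3 at 50 µM, Klf6, Klf10 and Klf15, beside 9.72% and 22% of all rows. With the replicate block 0 and 2 members passed, against 2.2% and 16.1% of all rows.

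Levels of the members were set against each other over the 18 libraries on the log2(FPKM + 1) scale, as a description, since the libraries share treatments and replicate numbers. The highest Pearson r of the 36 pairs was 0.849, for Klf2 and Klf3, followed by 0.832 for Klf3 and Klf10. The 6 members Klf2, Klf3, Klf4, Klf5, Klf6 and Klf10 had r from 0.417 to 0.849 with each other. Klf15 had its lowest values with Klf5 (-0.559), Klf6 (-0.451) and Klf4 (-0.415), and Klf9 and Klf13 had r between -0.286 and 0.071 with all other members.

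The 2 genes most like each member over the same libraries were taken by r among 8185 others with a mean of at least 5 FPKM (8186 for Klf5). For Klf2 they were Cacnb3 (r = 0.957, a calcium channel subunit) and P4ha1 (0.955, a collagen prolyl hydroxylase). Cacnb3 averaged 15.9 FPKM in Vehicle, 14.0 in PE and 6.86 to 8.98 in the 4 groups with inhibitor. Klf3 was most like Tgfbr2 (0.949), the type 2 TGF-beta receptor, which averaged 37.5 FPKM in Vehicle and 20.2 at 50 µM alone, and Yeats2 (0.931). Klf5 was most like St3gal2 (0.969), which averaged 30.9 FPKM in Vehicle, 52.6 in PE and 16.8 in PE with 50 µM, and Dag1 (0.963, dystroglycan). Klf10 was most like Meis1 (0.945), a homeobox gene that restrains myocyte division, and Pdcd4 (0.936). Klf6 was most like Itpripl2 (0.850) and the immediate early gene Egr1 (0.848), and Klf4 was most like Smurf1 and Sept5 (both 0.841). The locus of Smurf1 overlaps 13 other rows, so its values are less certain. Klf15 was most like Maf1 (0.885), a repressor of RNA polymerase III, and Map1lc3b (0.884), an autophagy protein. The best values for Klf9 (Tnfaip8, 0.709; Fam188a, 0.654) and Klf13 (Herpud2, 0.676; Brms1l, 0.631) were the lowest of the family.

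Of 17 other KLF and SP family genes listed, 14 were in the table and 6 passed the filter: Klf7, Klf11, Klf16, Sp1, Sp2 and Sp4. Klf11, a TGF-beta inducible relative of Klf10, was 14.8, 13.7 and 14.7 FPKM in Vehicle and 8.40, 8.13 and 10.2 FPKM in PE, and it fell by 0.64 (SE 0.13, adjusted p = 0.0019). It also fell by 0.66 at 50 µM alone (adjusted p = 0.00042). Of the 6, 4 fell and none rose at 50 µM alone, the others being Sp1 (-0.38, adjusted p = 0.0045), Sp2 (-0.55, adjusted p = 0.00078; -0.64 to -0.35 over 29 alternatives) and Sp4 (-0.80, adjusted p = 4.4e-05). The median of the 6 was -0.46, beside -0.01 over all rows. Of all rows, 30.2% fell and 30.5% rose at 50 µM alone, and 27.4% fell and 29.3% rose at 50 µM with PE. With PE and 50 µM, Sp4 (-0.59, adjusted p = 0.00082) and Sp2 (-0.38, adjusted p = 0.012) fell. With the replicate block 4 of the 6 fell there, beside 64% of all rows called in either direction. The Sp2 call was lost without PE replicate 3 (adjusted p up to 0.054). Klf16 fell at 10 µM alone (-0.47, adjusted p = 0.016), a call lost without Vehicle replicate 2 and without 10 µM replicate 1 or 2 (adjusted p up to 0.075). Klf7 averaged 2.54 FPKM in Vehicle and 2.01 FPKM at 50 µM alone and passed in none of these.

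The pathway genes around the members were read from lists of genes with textbook roles. The lists were chosen with earlier results of these data known, so their counts and medians are a description. Upstream of Klf2 and Klf4, where the MEK5 and ERK5 kinases activate MEF2 factors and class IIa histone deacetylases hold MEF2 back, 11 of 16 listed genes were tested. Of these, 3 fell and 1 rose at 50 µM alone, beside 30.2% and 30.5% of all rows. At 50 µM with PE 3 fell and 4 rose, beside 27.4% and 29.3% of all rows. The list's median at 50 µM alone was 0.01, beside -0.01 over all rows. Hdac5, one of those deacetylases, averaged 39.9 FPKM in Vehicle and rose with PE (0.40, SE 0.10, adjusted p = 0.0069). It then fell by 0.85 at 50 µM with PE (SE 0.10, adjusted p = 2.8e-06) and by 0.61 at 50 µM alone (adjusted p = 6.9e-05). Hdac9 fell by 1.10 (SE 0.18, adjusted p = 8.5e-05) and by 0.76 (adjusted p = 0.0018; changes of -1.02 to -0.50 over 29 alternatives) in the same comparisons. Map3k3, the kinase above MEK5, fell by 0.62 with PE (SE 0.10, adjusted p = 6.6e-05) and by 0.60 without it (adjusted p = 7.4e-05).

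Of 10 vascular genes known as targets of Klf2 or Klf4, 8 were tested, and they did not move in 1 direction. Thbd (thrombomodulin), which Klf2 is known to induce, rose at 10 µM alone, from 1.27, 1.49 and 1.97 FPKM to 4.98, 3.59 and 6.13 FPKM (1.18, SE 0.17, adjusted p = 0.00035), where Klf2 fell. Nos3, the other classical induced target, was at or below 0.294 FPKM in every library and was not tested. Edn1 (endothelin), which Klf2 is known to repress, fell by 1.61 at 50 µM alone (SE 0.38, adjusted p = 0.0017) and by 1.37 at 50 µM with PE (adjusted p = 0.0061). Cdkn1a (p21), a target induced by Klf4, fell by 0.52 at 10 µM alone (SE 0.10, adjusted p = 0.0030) and by 0.56 at 10 µM with PE (adjusted p = 0.0020). Klf4 itself was called in neither of these comparisons (limma adjusted p = 0.60 and 0.63). From 10 to 50 µM with PE, Cdkn1a rose by 0.38 (limma adjusted p = 0.0071). Of the 8, 3 fell and 0 rose at 50 µM alone, and 2 rose and 1 fell at 10 µM alone. With the replicate block 4 fell and 2 rose at 50 µM alone, beside 67.5% of all rows called in either direction. The median of the 8 at 50 µM alone was -0.41, beside -0.01 over all rows. Of all rows, 30.2% fell and 30.5% rose at 50 µM alone, and 9.17% rose and 7.01% fell at 10 µM alone.

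S1pr1, a sphingosine phosphate receptor that Klf2 is known to induce, was raised by PE from 25.7, 20.4 and 26.0 FPKM to 94.9, 81.9 and 87.0 FPKM (1.83, SE 0.22, adjusted p = 1.8e-05). At 50 µM with PE it was 19.6, 34.2 and 20.2 FPKM, a fall of 1.84 (SE 0.22, adjusted p = 3.6e-06). In the same step from Vehicle to PE, Klf2 read 30.1 and 20.5 FPKM on average.

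Of 14 metabolic genes known as targets of Klf15, 13 were tested. Of these, 7 rose and 3 fell at 50 µM alone, where Klf15 rose, and at 50 µM with PE, where its change was 0.01, 5 rose and 4 fell. The median was 0.69 and 0.24, beside -0.01 and 0.00 over all rows, of which 30.5% and 29.3% rose and 30.2% and 27.4% fell. At 10 µM alone 6 rose and 0 fell (median 0.51), and at 10 µM with PE 6 rose and 1 fell (median 0.34). In PE 4 rose and 2 fell (median 0.17). Klf15 was not called in PE or at 10 µM, where 30.6% (PE), 16.2% (10 µM alone) and 17% (10 µM with PE) of all rows were called. The fatty acid genes Fabp3, Cpt1b, Acsl1 and Cd36 rose at 50 µM alone and with PE. They also rose at 10 µM alone, Fabp3 by 1.62 (adjusted p = 0.00015). Fabp3 (the heart fatty acid binding protein) was 2089, 1755 and 1304 FPKM in Vehicle and 6064, 7035 and 4836 FPKM at 50 µM alone, with a rise of 1.81 (SE 0.21, adjusted p = 2.5e-06) there and of 1.46 at 50 µM with PE (adjusted p = 2.7e-05). Cpt1b, which lets fatty acids into mitochondria, was 113, 92.1 and 74.9 FPKM in Vehicle and 235, 296 and 273 FPKM at 50 µM alone. It rose by 1.52 without PE (SE 0.13, adjusted p = 9.4e-08) and by 0.92 with PE (adjusted p = 2.1e-05). Acsl1 rose by 1.53 and 0.96, and Cd36 by 1.39 and 0.95 (adjusted p at most 0.00032 for both genes). Cd36 and Fabp3 share their locus with another row, so their values are less certain.

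The branched-chain amino acid genes of the same list moved in both directions. Bcat2, the aminotransferase of that pathway, was 41.4, 39.6 and 34.9 FPKM in Vehicle and 52.3, 60.9 and 52.6 FPKM in PE, and it rose by 0.51 with PE (SE 0.12, adjusted p = 0.0054). At 50 µM with PE it was 29.8, 34.4 and 37.6 FPKM, a fall of 0.69 (SE 0.12, adjusted p = 0.00016), and it was 39.3, 41.7 and 51.0 FPKM at 50 µM alone, where it did not pass. Bckdhb rose by 0.70 at 50 µM alone (SE 0.14, adjusted p = 0.00047). Bckdha, like Bckdhb a subunit of the branched-chain ketoacid dehydrogenase, fell by 0.76 at 50 µM with PE (SE 0.11, adjusted p = 1.6e-05) and by 0.73 at 10 µM with PE (adjusted p = 0.00038). Pdk4, which shuts off pyruvate oxidation, fell by 0.51 at 50 µM alone (SE 0.13, adjusted p = 0.0031) and by 0.68 at 50 µM with PE (adjusted p = 0.00033). Slc2a4, the insulin-responsive glucose transporter, differed widely within groups, from 8.07 to 30.3 FPKM in Vehicle; its rise of 1.33 at 50 µM alone (adjusted p = 0.014) was lost without Vehicle replicate 3 or 50 µM replicate 2 (adjusted p up to 0.094).

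**Figure D4:**
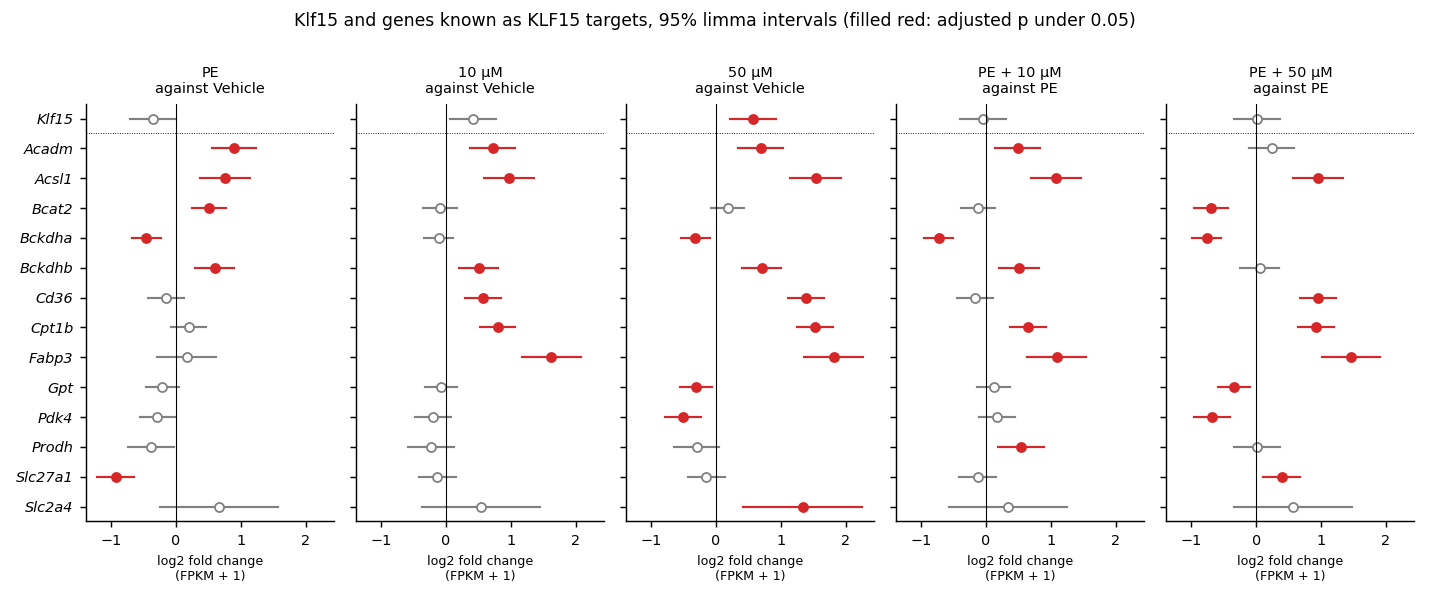
Log2 fold changes of log2(FPKM + 1) with 95% limma intervals (x axes) for Klf15 and 13 of its listed metabolic targets in the 5 comparisons with a control; red filled points have an adjusted p under 0.05. Fabp3, Acsl1, Cpt1b and Cd36 are higher at 50 µM with and without PE, while the interval of Klf15 spans 0 with PE.

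Klf9 and Klf15 are induced by glucocorticoids, and of 13 genes of that receptor and its classical targets 12 were tested. Of these, 4 rose and 5 fell at 50 µM alone, beside 30.5% and 30.2% of all rows. The median was -0.23, beside -0.01 over all rows. Nr3c1, the receptor itself, was 50.4, 46.6 and 48.3 FPKM in Vehicle and 33.2, 37.8 and 39.5 FPKM at 50 µM alone, and it fell by 0.39 (SE 0.09, adjusted p = 0.0010), with a locus that overlaps other rows. Zbtb16 (1.33, SE 0.23, adjusted p = 0.00011) and Mt2A (2.82, SE 0.29, adjusted p = 5.7e-07), a metallothionein, rose. Dusp1 (-1.49, SE 0.14, adjusted p = 2.5e-07) and the clock gene Per1 (-0.80, SE 0.11, adjusted p = 1.8e-05) fell.

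Around Klf10 and Klf5, 13 of 14 listed genes of the TGF-beta pathway and targets of Klf5 were tested, of which 3 rose and 7 fell at 50 µM alone, and 4 rose and 7 fell at 50 µM with PE. Those that fell in both were Tgfb1, Tgfb2, Tgfb3, Tgfbr2, Smad2, Smad3 and Smad7. Myc, Pdgfa and Ppara rose in both, and Smad4 rose at 50 µM with PE. Some of these calls at 50 µM with PE were lost in part of 29 alternative analyses. Those of Tgfb3 and Smad4 were lost in 7 each, of Tgfbr2 in 6, of Smad2 and Smad7 in 3 each and of Pdgfa in 2 (limma adjusted p up to 0.18). The medians of the 13 tested genes were -0.38 at 50 µM alone and -0.26 at 50 µM with PE, beside -0.01 and 0.00 over all rows. Of all rows, 30.5% rose and 30.2% fell at 50 µM alone, and 29.3% rose and 27.4% fell at 50 µM with PE. Tgfb1, the ligand known to induce Klf10, fell by 1.25 at 50 µM alone (SE 0.13, adjusted p = 7.4e-07) and by 0.72 at 50 µM with PE (adjusted p = 0.00023). Tgfb2 rose by 0.62 in PE against Vehicle (adjusted p = 0.010) and fell by 1.22 at 50 µM with PE (SE 0.17, adjusted p = 1.4e-05). Smad3, a signal carrier of the pathway, fell by 0.56 with PE (SE 0.12, adjusted p = 0.0032), by 0.99 at 50 µM alone (adjusted p = 4.7e-06) and by 0.59 at 50 µM with PE (adjusted p = 0.00081). Tgfbr2 fell by 0.86 at 50 µM alone (SE 0.19, adjusted p = 0.0011). Ppara, a lipid regulator known as a target of Klf5, rose by 1.30 at 50 µM alone (SE 0.13, adjusted p = 5.4e-07) and by 1.02 at 50 µM with PE (adjusted p = 7.7e-06), in the comparisons in which Klf5 fell. Myc rose in both (1.46, adjusted p = 0.00057, and 1.63, adjusted p = 0.00025).

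Among 10 tested genes of 13 listed cofactors and ubiquitin ligases of KLF proteins, 5 rose and 4 fell at 50 µM alone, beside 30.5% and 30.2% of all rows. The median was 0.10, beside -0.01 over all rows. Wwp1, a ligase known to act on Klf2 and Klf5, was 15.5, 16.3 and 16.2 FPKM in Vehicle and 29.8, 38.2 and 37.3 FPKM at 50 µM alone. It rose by 1.08 there (SE 0.11, adjusted p = 5.1e-07) and by 0.90 at 50 µM with PE (adjusted p = 3.8e-06). Fhl3, a LIM protein known to bind Klf3, rose by 1.53 and 1.36 (SE 0.28 each, adjusted p at most 0.00056). Ctbp2, the corepressor bound by Klf3, fell by 0.49 at 50 µM alone (SE 0.08, adjusted p = 9.3e-05) and by 0.36 at 50 µM with PE (adjusted p = 0.0014). These are transcript levels, and no protein was measured.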

How the data were processed

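RNA from 18 libraries (6 groups of 3) was sequenced after polyA selection and TruSeq library preparation, per the labels' protocols. The authors deposited 1 table of FPKM values, 1 column per library, in which the lowest value is 0.01. Per the submitters' processing notes, reads were handled with Bowtie2 and Cufflinks on rn5; the sources used here give no version, annotation or strand setting. The labels write the PE dose as "µm", read here as µM. FPKM sums were 610324 to 910958 per library. Relative depth, from the steps of rows under 0.2 FPKM, was 0.833 to 1.11 of Vehicle replicate 2; absolute depth is unknown, so no counting interval is given. The correlation of replicates across tested rows was 0.986 to 0.992, and at most 0.153% of values were equal between any 2 libraries.

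The 10478 of 17303 rows that reached 1 FPKM in 3 or more libraries were fitted as log2(FPKM + 1) with limma 3.58.1 (R 4.3.3), with 6 group means, a variance trend and 12 residual degrees of freedom. The model was first run on simulated data, read for PE against Vehicle only. The simulated noise was independent between libraries, so that run does not check the model under a pairing by replicate number. Benjamini-Hochberg adjustment was made per comparison, and every adjusted p in the text comes from this model or a named alternative. The median SE was 0.118. The replicate numbers pair the libraries: across rows, the departures of 2 libraries from their group means had r of 0.213 to 0.587 for all 45 pairs with 1 number, and -0.462 to 0.095 for the 90 others. The labels do not say what a number stands for. The model was kept without a block, which was an alternative (10 residual degrees of freedom).

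Members and lists were chosen with earlier results of these data known. Named genes are the 9 members, the tested KLF and SP genes, up to 4 called genes per list and comparison by size, and the 2 genes most like each member; other listed genes and cell markers named in the text were picked after their values were seen. A listed vascular gene is counted with its list but not reported here. Promoters are from RefSeq GRCr8. Tables and figures used matplotlib 3.10.9, pandas 2.3.3 and numpy 2.4.6 in Python 3.11.15.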

Additional observations from a re-analysis of the deposited data

Results flagged for a closer look

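In the model without the replicate block, no member passed the test of the difference between its responses with and without PE. In the same model 2 genes of the target lists passed. They were 1 of 8 tested vascular genes, at both doses, and 1 of 13 tested Klf15 targets, at 50 µM. The other pathway lists, with 6, 11, 12, 13 and 10 tested genes, had none. Of all rows, 0.305% passed at 10 µM and 7.01% at 50 µM. With the replicate block more passed at 50 µM, beside 16.1% of all rows. They were 2 members, 5 of 13 genes of the TGF-beta list (all higher), 7 of 13 Klf15 targets (1 higher, 6 lower) and 2 of 8 vascular genes (lower). At 10 µM the block gave 2 Klf15 targets, 1 vascular gene and 1 gene of the TGF-beta list, all lower, beside 2.2% of all rows. S1pr1, a receptor gene known as a target of Klf2, responded differently to Senexin A with and without PE at both doses. At 10 µM it rose by 0.84 alone and fell by 0.73 with PE, a difference of -1.57 (SE 0.31, limma adjusted p = 0.048) that was lost in 17 of 29 alternative analyses, among them those without Vehicle replicate 1 and without Vehicle replicate 2 (adjusted p up to 0.33). At 50 µM it fell by 0.66 alone and by 1.84 with PE, a difference of -1.17 (SE 0.31, limma adjusted p = 0.032) that was lost in 10 of 29, among them those without Vehicle replicate 2 or 3 (adjusted p up to 0.18). The S1pr1 changes themselves were lost in 3 of 29 at 10 µM alone (adjusted p up to 0.074, among them without Vehicle replicate 2 or 10 µM replicate 1), in 7 at 10 µM with PE (up to 0.15, among them without any 1 PE library or replicate 1 or 3 of PE with 10 µM) and in 4 at 50 µM alone (up to 0.22, among them without Vehicle replicate 3 or 50 µM replicate 1 or 3). Bcat2, a target of Klf15, had a difference of -0.87 at 50 µM (SE 0.17, limma adjusted p = 0.0071): its change was 0.18 alone and -0.69 with PE, and the call was lost only with the first 2 replicates of each group (adjusted p = 0.10).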

How the results depend on the processing

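Over 882 values of the members under other settings, 854 stayed on their side of the threshold, 6 lost the call, 22 gained it and 0 called values changed sign; with single libraries left out the counts were 1431, 11, 16 and 0 of 1458. Among those that stayed, the sign changed in 13 and 39 values that were not called in either analysis. For PE against Vehicle, the number of members called was 1, and 2 with quantile normalization, no variance trend or array weights. With the replicate block as a pairing of libraries it was 4; the block also gave 2 for 10 µM with PE, 5 for 50 µM with PE and 2 for the difference between responses at 50 µM. For 10 µM alone it was 2, and 1 with no filter or with only replicates 1 and 2 (chosen after seeing the data). With a filter of 5 FPKM it was 0 for 50 against 10 µM with PE, since Klf5 was then not fitted. Leaving out single libraries gave 1 to 2 for PE (2 without Vehicle replicate 3 or replicate 2 of PE with 50 µM), 1 to 3 for 10 µM alone, 6 to 7 for 50 µM alone, 1 for 10 µM with PE, 2 to 4 for 50 µM with PE, 1 to 2 for 50 against 10 µM with PE (2 without replicate 1 of PE with 10 µM), 3 to 5 without PE, and 0 and 0 to 1 for the differences between responses. For 10 µM alone the count was 1 without Vehicle replicate 3 or any 10 µM library. The block changed no other count by over 1.5 times. Quantile normalization called 47.7% of the PE calls higher, against 58.5%. Except where stated, the cause was not tested. Having 3 libraries a group and an unknown depth limit what low genes such as Klf5 and Klf13 can show.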
